A study of Mus musculus with 9 samples.

Results

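The insulin-like growth factor (IGF) system was followed through 8 of the 24067 genes measured, 6 IGF-binding proteins (Igfbp2, Igfbp3, Igfbp4, Igfbp5, Igfbp6 and Igfbp7) and 2 IGF receptors (Igf1r and Igf2r). Igfbp7 was selected on its lower values in the libraries coded C-20 and C-26 than in those coded NTC, and the other 7 genes came with it as its family, found by symbol. The 9 libraries were polyadenylated RNA of 4T1, a mouse mammary carcinoma line that grows and spreads in immunocompetent mice. By title, 3 libraries were of clone 3, a stable line from a miR-204-5p plasmid labelled 525-fold over control. Another 3 libraries were of clone 2, labelled 150-fold over control, and 3 were of control 4T1, which received the control plasmid. Crossed with the titles, each title had 1 library coded C-26, 1 coded C-20 and 1 coded NTC in its description; the labels do not say what the codes stand for. All cells were transfected by lipofection, selected with the same drug and grown in medium with serum. Each overexpressing title is 1 clone, each pairing of a title with a code has a single library, and nothing states that the libraries came from separate cultures, so p-values measure only the spread between these libraries.

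IGF1 and IGF2 are secreted growth factors that activate IGF1R, a receptor tyrosine kinase acting through insulin receptor substrates on the PI3K-AKT and RAS-MAPK pathways. The binding proteins hold IGFs outside the cell and either keep them from the receptor or release them when proteases cut the binding protein. IGF2R, also called the cation-independent mannose 6-phosphate receptor, does not signal like IGF1R: it takes up IGF2 for degradation and carries newly made lysosomal enzymes. IGFBP7 is a distant relative with weak affinity for IGFs, found in the matrix around vessels and epithelia. IGFBP5 is known in the mammary gland for its rise during involution.

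Because both overexpressing clones were made with miR-204-5p, its seed and the matching sites in the receptors are shown first. The capitals mark bases 2 to 8 of the mature miRNA (mouse, chr19:22750610-22750631, plus strand, RefSeq) and the 8 bases of each site that match the reverse complement of that seed followed by A (AAAGGGAA). The sites are in the annotated 3′ UTRs of GENCODE M21, drawn on GRCm38, which mm10 names too.
mmu-miR-204-5p: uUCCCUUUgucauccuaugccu
Igf1r, from base 2514 of a 3′ UTR of 7267 bases, chr7:68228904-68228933, plus strand: cctctgcccttAAAGGGAAaaggagggggg
Igf2r, from base 113 of a 3′ UTR of 1304 bases, chr17:12683579-12683608, minus strand: aaaactgcttcAAAGGGAAgagtttctgta

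Both receptors thus held 1 full 8-base match, and Igf1r held 1 shorter match of 6 bases as well. The share of all 20407 annotated 3′ UTRs with such a match was 6.76%. It was 22.2% among 3′ UTRs of 4000 to under 10000 bases, the length class of Igf1r, and 5.94% among those of 1000 to under 2000 bases, the class of Igf2r. The 3′ UTR of Igfbp5, of 4445 bases, held 4 shorter matches: 2 of AAAGGGA and 2 of AAGGGAA. Those of Igfbp2, Igfbp3, Igfbp4, Igfbp6 and Igfbp7 held no match of 6 bases or more. A match is a description of the sequence, not evidence of binding.

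The other pair of sequences is that of the most abundant binding proteins here, Igfbp4 and Igfbp7. Each promoter window runs from 250 bases before to 50 bases after the start site used by the RefSeq promoter table (GRCm38.p6). For Igfbp7 this is the start of the annotated gene; for Igfbp4 it lies inside the annotated span, which begins further upstream. Here the capitals mark TATAAA, the TATA box, and GGGCGG, the core of a GC box, on either strand (CCGCCC where it lies on the other strand).
Igfbp4, chr11:99040994-99041293, plus strand: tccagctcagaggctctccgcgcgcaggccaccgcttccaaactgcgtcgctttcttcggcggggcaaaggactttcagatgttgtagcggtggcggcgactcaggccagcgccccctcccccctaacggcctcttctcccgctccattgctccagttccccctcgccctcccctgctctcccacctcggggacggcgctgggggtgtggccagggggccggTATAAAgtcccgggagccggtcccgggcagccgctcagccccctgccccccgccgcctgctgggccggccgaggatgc
Igfbp7, chr5:77407996-77408295, minus strand: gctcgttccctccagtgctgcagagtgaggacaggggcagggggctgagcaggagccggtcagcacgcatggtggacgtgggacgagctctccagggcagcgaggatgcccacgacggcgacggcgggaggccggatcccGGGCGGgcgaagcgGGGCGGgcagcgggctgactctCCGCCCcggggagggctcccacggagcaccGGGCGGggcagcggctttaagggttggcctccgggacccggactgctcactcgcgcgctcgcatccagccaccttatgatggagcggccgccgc

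The Igfbp4 promoter held 1 TATAAA, beginning 28 bases before the start site, and no GGGCGG, whereas the Igfbp7 promoter held 4 GGGCGG and no TATAAA. Of 27025 mouse promoters of the same length, 14.2% held TATAAA and 35.9% held GGGCGG. Both promoters were rich in CpG, with 27 in Igfbp4 and 33 in Igfbp7 against a median of 7 over all promoters. Neither held CACGTG, the E-box bound by MYC and related factors, which 7.24% of promoters held. These counts describe the letters in the windows shown and say nothing of which factors act there.

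The values are FPKM (fragments scaled by transcript length and by mapped total), which are set per length and so allow levels of different genes to be ordered. Read depth is not known from them. Of the 8 members, 4 (Igfbp4, Igfbp7, Igf1r and Igf2r) reached 1 FPKM in at least 3 libraries and entered the tests, among 10783 genes. Differences between groups are log2 changes of FPKM + 1, which understate the change of low genes, with p-values from limma adjusted by Benjamini-Hochberg over all 10783 genes and called below 0.05. By title, 20.6% of tested genes were called in clone 3 against control (7.44% higher, 13.2% lower), 18.8% in clone 3 against clone 2 (6.03% higher, 12.8% lower) and 0.0% in clone 2 against control. By code, 0.139% were called in C-26 against NTC, 0.0185% in C-20 against NTC and 0.0185% in C-26 against C-20. With title as a block, which compares libraries of the same title, these shares were 14.1% (6.75% higher, 7.36% lower), 0.306% and 0.0185%. Both comparisons with NTC use the same 3 NTC libraries. Epithelial markers fitted the labelled cell type: 11 of 12 passed the filter, led by Krt18 at a mean of 505 FPKM. Of other lineages, 9 of 13 endothelial, 11 of 12 fibroblast and 8 of 10 leukocyte markers stayed below 1 FPKM in every library.

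Igfbp4 was by far the most abundant member. It encodes a secreted binding protein that in most settings holds IGFs away from their receptor and is released from them by the protease PAPP-A. It averaged 343 FPKM over the 9 libraries, rank 180 of 24067 genes, and its gene lies at chr11:99040005-99052655. In clone 3 it was at 538 FPKM in C-26, 474 FPKM in C-20 and 298 FPKM in NTC. In clone 2 it was at 528 FPKM in C-26, 277 FPKM in C-20 and 196 FPKM in NTC. In control it was at 315 FPKM in C-26, 321 FPKM in C-20 and 138 FPKM in NTC. Within each title the NTC library was the lowest, so Igfbp4 was higher than in NTC in 6 of 6 pairs of libraries of 1 title. The groups overlapped once titles were pooled, because the NTC library of clone 3 exceeded the C-20 library of clone 2.

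By code, Igfbp4 averaged 460.4 ± 126 FPKM in C-26, 358 ± 103 FPKM in C-20 and 211 ± 81.1 FPKM in NTC (SD, n = 3 each). In C-26 against NTC this was 2.22-fold, a log2 change of 1.15 (SE 0.34, 95% interval 0.39 to 1.92), which was not called (limma adjusted p = 0.167). With title as block the same change had an SE of 0.21 and was called (limma adjusted p = 0.0126), 1 of 3 members tested beside the 14.1% of all genes. Without the 3 libraries of clone 3 the blocked change was 1.31 and was not called (limma adjusted p = 0.0545). The blocked call was also lost without the C-26 library of clone 2 (0.95, limma adjusted p = 0.127) and without its NTC library (1.16, limma adjusted p = 0.0608). Over 29 settings the change ran between 0.88 and 1.44 and the limma adjusted p between 0.00517 and 0.482, and the 9 settings that called it all had the block. In C-20 against NTC the log2 change was 0.79 (SE 0.34, 95% interval 0.03 to 1.56) and was not called (limma adjusted p = 0.638, and 0.1 with the block). C-26 exceeded C-20 in 2 of 3 titles, and their difference of 0.36 (95% interval −0.41 to 1.13) was not called (limma adjusted p = 1.00).

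The summed FPKM of the 12 epithelial markers ran from 1289.85 to 1769 in C-26, from 991 to 1781 in C-20 and from 450.5 to 1398 in NTC libraries. That of the 12 fibroblast markers, mostly Pdgfra, ran from 4.74 to 8.17 in C-26, from 4.50 to 7.12 in C-20 and from 1.60 to 3.76 in NTC. That of the 10 leukocyte markers, mostly Cd68 and with Cd3e listed at 0 throughout, ran from 11.2 to 16.0 in C-26, from 10.7 to 13.03 in C-20 and from 7.25 to 10.2 in NTC. The epithelial ranges overlapped, and most of that sum was Krt8 and Krt18. Within that list Krt8 and Krt19 rose in C-26 against NTC with title as block (log2 changes 1.47 and 1.46, limma adjusted p = 0.0337 and 0.00753). Cldn3 and Esrp1 fell (−1.07 and −0.62, limma adjusted p = 0.00668 and 0.0387). That fit called 14.1% of all tested genes. Among them Pdgfra and Cd68 also rose (1.197 and 0.607, limma adjusted p = 0.0190 and 0.0338). Of the endothelial markers Flt1 rose (0.787, limma adjusted p = 0.0284). Ecscr, described below, was lower, but it reached 1 FPKM only in NTC libraries and entered the test through them alone. Its call is therefore no independent test of a fall. Without the block none of the other markers was called. The part of these markers in the Igfbp4 difference was not tested. In bulk RNA, fewer cells of a type and less RNA per cell cannot be told apart. The authors' deposited table gives Igfbp4 a fold of 2.39 in C-26 over NTC (raw p = 0.0350, adjusted p = 0.554) and of 1.796 in C-20 over NTC (raw p = 0.108, adjusted p = 0.911).

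By title, Igfbp4 averaged 437 ± 124 FPKM in clone 3, 334 ± 173 FPKM in clone 2 and 258 ± 104 FPKM in control (SD, n = 3 each). The 3 ranges overlapped. Clone 3 against control gave a log2 change of 0.81 (SE 0.42, 95% interval −0.12 to 1.74), which was not called (limma adjusted p = 0.190). With code as block the same change had an SE of 0.21 and was called (limma adjusted p = 0.0149), beside 3330 of the 10783 tested genes. The codes pair the libraries less clearly than the titles do. After correction for transcript length and GC content the change of Igfbp4 was 0.46 (limma adjusted p = 0.485, and 0.104 with code as block). Clone 2 against control gave 0.35 (limma adjusted p = 0.878) and clone 3 against clone 2 gave 0.47 (limma adjusted p = 0.461).

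**Figure D1:**
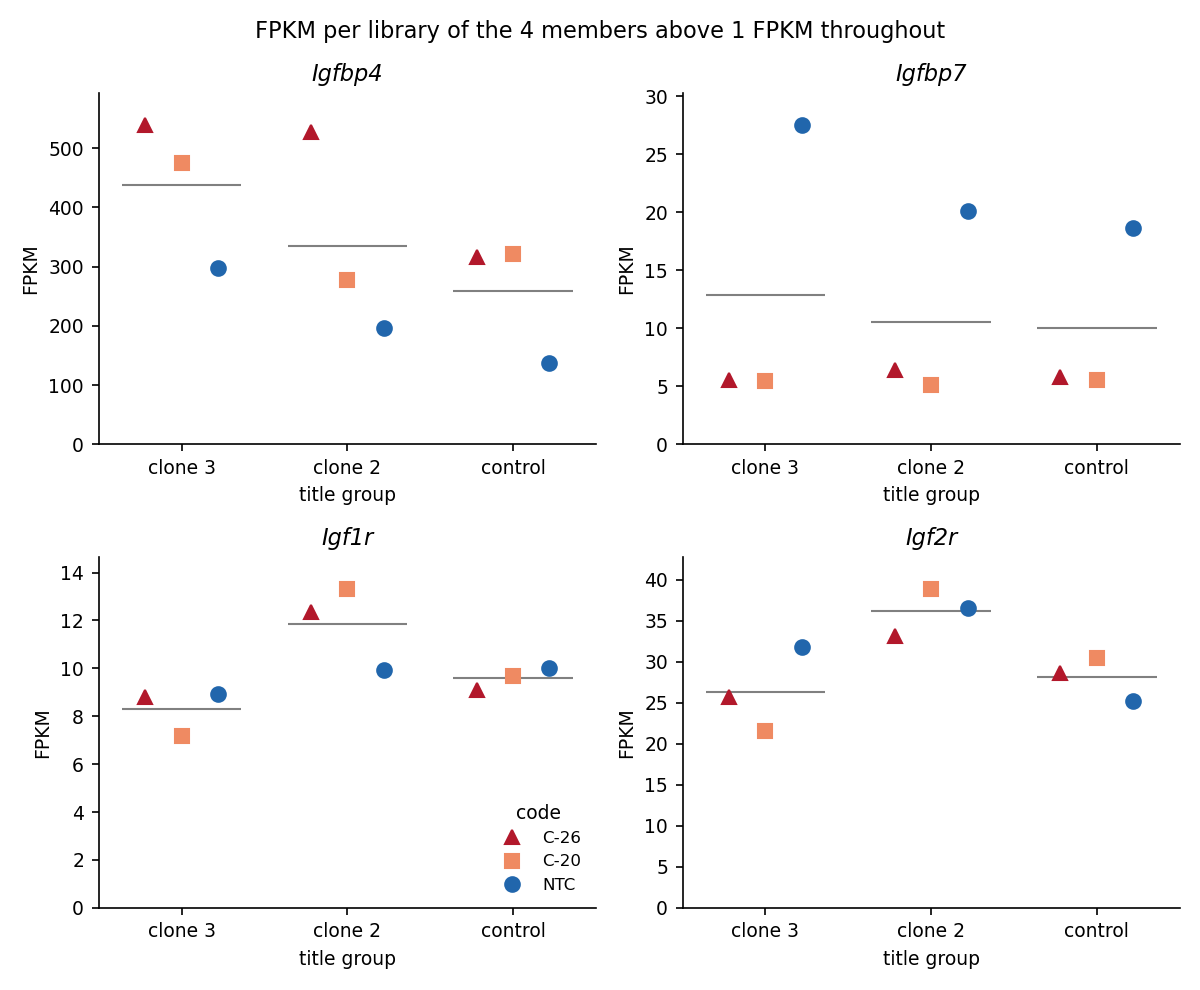
FPKM (linear axes from 0) of Igfbp4, Igfbp7, Igf1r and Igf2r in each of the 9 libraries, by title on the x axis and by code in colour and shape; the grey line is the mean of the 3 libraries of a title. Igfbp4 is lowest and Igfbp7 highest in the NTC library of every title, whereas Igf1r and Igf2r follow no common order of the codes.

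Igfbp7, the member on which the choice was made, ran the other way. It encodes a secreted matrix-associated protein, at chr5:77349240-77408045. It was at 5.58 FPKM in C-26, 5.46 FPKM in C-20 and 27.5 FPKM in NTC of clone 3. Clone 2 had 6.39 FPKM in C-26, 5.10 FPKM in C-20 and 20.1 FPKM in NTC. Control had 5.84 FPKM in C-26, 5.57 FPKM in C-20 and 18.6 FPKM in NTC. The 6 libraries coded C-26 or C-20 lay within 5.10 to 6.39 FPKM whatever their title, and the 3 NTC libraries lay above them all without overlap. As these values chose the gene, they are given with no test: means were 5.94 ± 0.417 FPKM in C-26, 5.37 ± 0.248 FPKM in C-20 and 22.1 ± 4.74 FPKM in NTC (SD, n = 3 each). The NTC level over that of C-26 of the same title was 4.93-fold in clone 3, 3.14-fold in clone 2 and 3.19-fold in control. For C-20 these ratios were 5.03 in clone 3, 3.94 in clone 2 and 3.35 in control.

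Comparisons that the choice did not use gave no call for Igfbp7. C-26 was higher than C-20 in 3 of 3 titles, by a log2 change of 0.12 (SE 0.19, 95% interval −0.30 to 0.55) that was not called (limma adjusted p = 1.00). Title means were 12.8 ± 12.7 FPKM in clone 3, 10.5 ± 8.31 FPKM in clone 2 and 10.0 ± 7.47 FPKM in control (SD, n = 3 each), where the SD holds the gap between codes. The log2 change was 0.15 in clone 3 against control (95% interval −1.33 to 1.63, limma adjusted p = 0.892), 0.04 in clone 2 against control (limma adjusted p = 0.999) and 0.12 in clone 3 against clone 2 (limma adjusted p = 0.921). Corrected for transcript length and GC content these became −0.26, −0.02 and −0.24, none of them called (limma adjusted p = 0.865, 0.996 and 0.867).

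The genes most like Igfbp7 across the 9 libraries, by Pearson's r of log2(FPKM + 1) and with no test, were Ecscr (0.99), Bmp7 (0.98), Eif4enif1 (0.97), Cav1 (0.96), Adal (0.95) and Med20 (0.95). They share the libraries, and 21 tested genes reached an r of 0.9. Ecscr, a small membrane protein known from endothelium, was at 0.0215 to 0.155 FPKM in C-26, 0.0218 to 0.107 FPKM in C-20 and 1.46 to 1.87 FPKM in NTC libraries. The defining endothelial genes Pecam1, Cdh5 and Kdr were at most 0.202, 0.0527 and 0.0610 FPKM in any library. The summed FPKM of the 12 endothelial markers other than Ecscr ran from 36.3 to 38.7 in C-26, from 34.1 to 39.9 in C-20 and from 22.0 to 40.6 in NTC libraries, most of it Egfl7 and Eng (means 16.2 and 15.5 FPKM). Bmp7, a secreted ligand of the TGF-beta superfamily, was at 1.72 to 2.16 FPKM in C-26, 1.63 to 1.95 FPKM in C-20 and 3.39 to 5.23 FPKM in NTC. Cav1, the coat protein of caveolae, was at 0.129 to 0.442 FPKM in C-26, 0.0535 to 0.262 FPKM in C-20 and 1.08 to 2.41 FPKM in NTC. In each of these the NTC libraries stood above the other 6, which follows from picking genes by their likeness to Igfbp7. Ecscr, Cav1 and Adal reached 1 FPKM only in NTC libraries and so passed the filter through them alone.

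For Igfbp4, many more genes followed its pattern: 286 reached an r of 0.9. The 6 most alike were Gchfr, Ociad2, Map1a, Wnt10a, Pcyt1b and Cand2, each at 0.98. Gchfr, which encodes the feedback regulator of GTP cyclohydrolase, was at 32.7 to 56.0 FPKM in C-26, 28.9 to 53.7 FPKM in C-20 and 13.8 to 35.99 FPKM in NTC. Wnt10a, a secreted Wnt ligand, was at 10.3 to 16.5 FPKM in C-26, 10.8 to 15.1 FPKM in C-20 and 4.93 to 8.87 FPKM in NTC. The genes next to both binding proteins on the chromosome were looked at after the values were seen. Beside Igfbp4, Tns4, a focal adhesion protein, had a log2 change of 1.71 in C-26 against NTC (limma adjusted p = 0.120, and 0.00730 with title as block), whereas Top2a (0.29, limma adjusted p = 0.808) and Smarce1 (0.23, limma adjusted p = 0.687) were not called. Beside Igfbp7, Rest, Noa1 and Polr2b had changes of −0.08, −0.31 and 0.06 in C-26 against NTC, none called (limma adjusted p = 0.907, 0.601 and 0.897).

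Of the summed FPKM of the 6 binding proteins, Igfbp4 held between 87.9% and 98.8% in each library. Igfbp7 held 1.02% to 1.82% in C-26, 1.14% to 1.796% in C-20 and 8.43% to 11.9% in NTC libraries. The sum averaged 467 ± 126 FPKM in C-26, 364 ± 104 FPKM in C-20 and 233 ± 85.8 FPKM in NTC (SD, n = 3 each). Per library the ratio of Igfbp4 to Igfbp7 was 54.0 to 96.5 in C-26, 54.5 to 86.9 in C-20 and 7.38 to 10.8 in NTC. The contrast rests on both genes, and its Igfbp7 side was chosen by the codes.

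**Figure D2:**
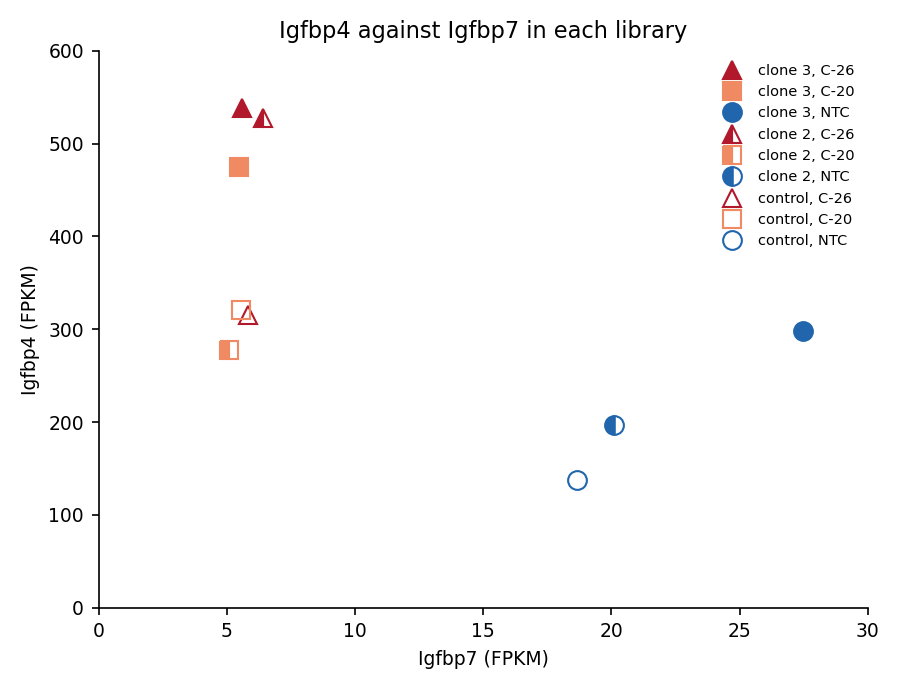
Igfbp4 (y axis, FPKM) against Igfbp7 (x axis, FPKM), 1 point per library, with colour and shape for the code and fill for the title. The 3 NTC libraries sit at 18.6 to 27.5 FPKM of Igfbp7, and the other 6 at 5.10 to 6.39 FPKM with Igfbp4 between 277 and 538 FPKM.

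The other 4 binding proteins were near 0 and did not pass the filter. Igfbp6, which prefers IGF2, was the highest of them. It was at 0.704 FPKM in C-26, 0.733 FPKM in C-20 and 0.386 FPKM in NTC of clone 3. Clone 2 had 1.03 FPKM in C-26, 0.826 FPKM in C-20 and 0.572 FPKM in NTC, and control had 0.315 FPKM in C-26, 0.209 FPKM in C-20 and 0.271 FPKM in NTC. The 3 control libraries were thus below all 6 libraries of the clones, at levels under the filter. In a fit with no filter (20025 genes) Igfbp6 had log2 changes of 0.34 in clone 3 against control (95% interval 0.08 to 0.60, limma adjusted p = 0.111) and 0.51 in clone 2 against control (95% interval 0.25 to 0.77, limma adjusted p = 0.320), neither called. The limma adjusted p of 0.111 was the smallest of the 4 genes over the 6 comparisons in that fit. Its means were 0.607 ± 0.192 FPKM in clone 3, 0.808 ± 0.228 FPKM in clone 2 and 0.265 ± 0.0534 FPKM in control (SD, n = 3 each).

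Igfbp3, the main carrier of IGFs in blood, was at 0.208, 0.301 and 0.0238 FPKM in the C-20 libraries of clone 3, clone 2 and control. In the other 6 libraries it was at most 0.0161 FPKM, and it was listed at 0 in 3 of them. Igfbp5 was at 0.0398, 0.0425 and 0.0190 FPKM in the same C-20 libraries and at most 0.00965 FPKM elsewhere, listed at 0 in 3 libraries. Igfbp2, a binding protein often raised in tumours, was listed at 0 in 8 of 9 libraries and at 0.0473 FPKM in C-26 of clone 2. Igfbp2 and Igfbp5 are neighbours on chromosome 1, at chr1:72824480-72852474 and chr1:72858065-72874865. As a gauge of such low values, 1446 genes of odorant and vomeronasal receptors, which belong to sensory neurons, were counted in the same way. Of these, 38 reached the highest value of Igfbp2 in some library, 57 that of Igfbp5, 5 that of Igfbp3 and 2 that of Igfbp6. The share of them above 0 differed among libraries, from 0.968% to 16.3%, and was highest in C-26 of clone 2, the one library with Igfbp2. It was lowest in C-20 and C-26 of clone 3, where Igfbp3 was at 0.208 and 0 FPKM.

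**Figure D3:**
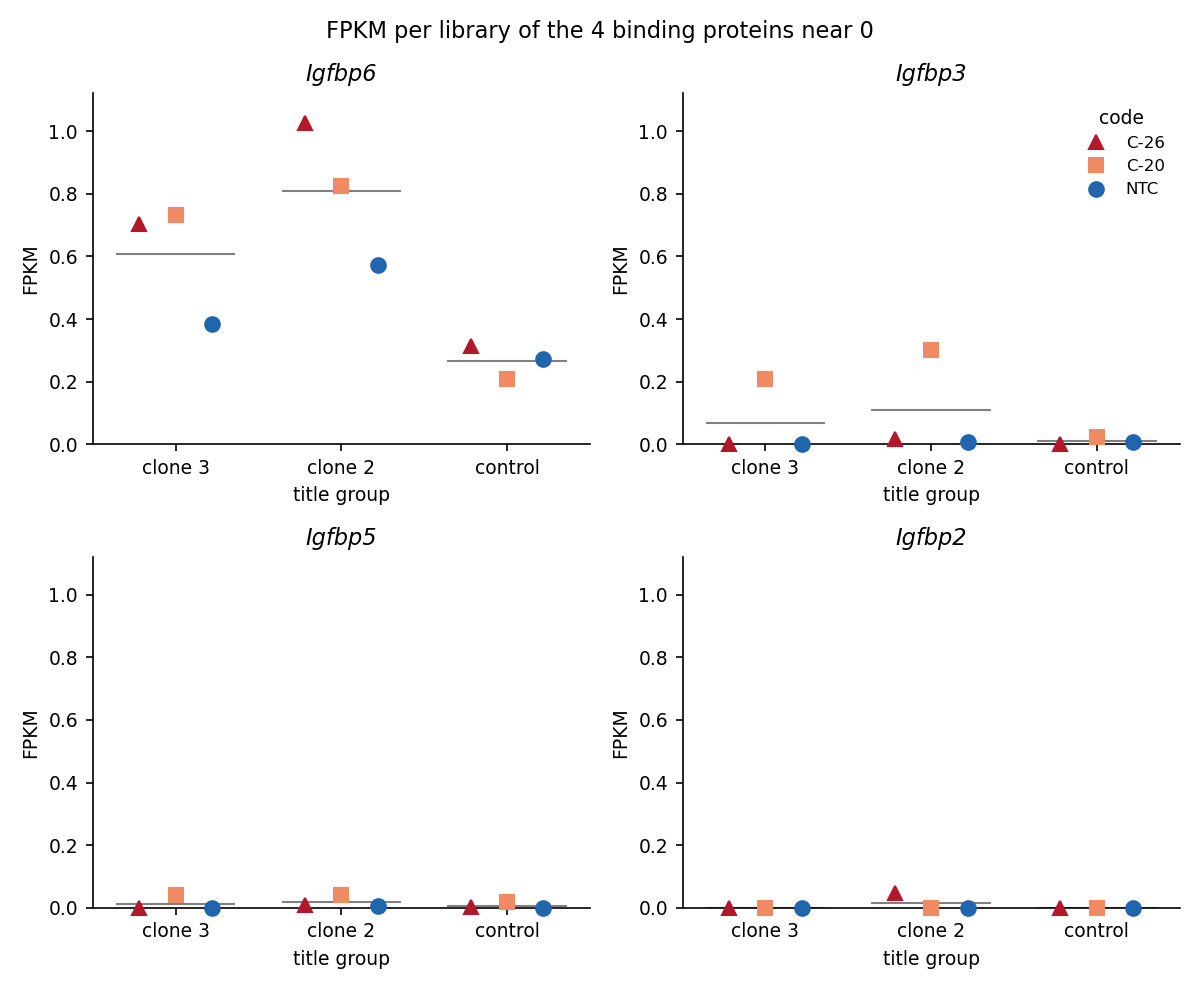
FPKM (linear axes of the same range) of Igfbp6, Igfbp3, Igfbp5 and Igfbp2 in each library, by title and code, with the mean of each title as a grey line. Igfbp6 lies between 0.209 and 1.03 FPKM and the other 3 genes at or under 0.301 FPKM.

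Igf1r, the signalling receptor (chr7:67952257-68233668), averaged 9.92 FPKM. It was at 8.80 FPKM in C-26, 7.16 FPKM in C-20 and 8.93 FPKM in NTC of clone 3. Clone 2 had 12.3 FPKM in C-26, 13.3 FPKM in C-20 and 9.91 FPKM in NTC, and control had 9.11 FPKM in C-26, 9.69 FPKM in C-20 and 10.0 FPKM in NTC. All libraries of clone 3 were below those of clone 2 and of control, with means of 8.29 ± 0.987 FPKM in clone 3, 11.9 ± 1.75 FPKM in clone 2 and 9.61 ± 0.465 FPKM in control (SD, n = 3 each). Clone 3 against clone 2 had a log2 change of −0.46 (SE 0.16, 95% interval −0.83 to −0.10) that was not called (limma adjusted p = 0.0736). It was called without the NTC library of control (limma adjusted p = 0.0456), and it was −0.17 after the length and GC correction (limma adjusted p = 0.511), over a range of adjusted p between 0.0298 and 0.511 in 27 settings. Clone 3 against control gave −0.20 (95% interval −0.56 to 0.17, limma adjusted p = 0.418) and clone 2 against control 0.27 (95% interval −0.10 to 0.63, limma adjusted p = 0.695).

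Igf2r, the scavenging receptor (chr17:12682406-12769706), stood above Igf1r in every library, by a ratio of 2.51 to 3.69. It was at 25.7 FPKM in C-26, 21.5 FPKM in C-20 and 31.8 FPKM in NTC of clone 3. Clone 2 had 33.2 FPKM in C-26, 38.9 FPKM in C-20 and 36.6 FPKM in NTC, and control had 28.7 FPKM in C-26, 30.5 FPKM in C-20 and 25.2 FPKM in NTC. Every library of clone 2 was above those of clone 3 and of control, which overlapped. The means were 26.3 ± 5.15 FPKM in clone 3, 36.2 ± 2.88 FPKM in clone 2 and 28.1 ± 2.71 FPKM in control (SD, n = 3 each). Clone 3 against clone 2 gave a log2 change of −0.46 (SE 0.17, 95% interval −0.84 to −0.08), not called (limma adjusted p = 0.0892, between 0.0271 and 0.369 in 27 settings). It was called without the NTC library of clone 3 (−0.60, limma adjusted p = 0.0413), and with code as block also without the NTC library of control (limma adjusted p = 0.0271). Clone 2 against control gave 0.36 (95% interval −0.03 to 0.74, limma adjusted p = 0.5996) and clone 3 against control −0.10 (95% interval −0.49 to 0.28, limma adjusted p = 0.696).

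By code, neither receptor gave a call. Igf1r averaged 10.1 ± 1.97 FPKM in C-26, 10.1 ± 3.10 FPKM in C-20 and 9.62 ± 0.606 FPKM in NTC (SD, n = 3 each), and its log2 changes against NTC were 0.05 in C-26 (95% interval −0.48 to 0.58) and 0.02 in C-20 (95% interval −0.51 to 0.55). Igf2r averaged 29.2 ± 3.77 FPKM in C-26, 30.3 ± 8.68 FPKM in C-20 and 31.2 ± 5.73 FPKM in NTC (SD, n = 3 each), with changes of −0.08 in C-26 (95% interval −0.63 to 0.46) and −0.06 in C-20 (95% interval −0.61 to 0.49). Their limma adjusted p-values against NTC were 0.943 and 0.990 for Igf1r and 0.896 and 0.969 for Igf2r in the same order. With title as block the intervals for C-26 against NTC were −0.33 to 0.43 for Igf1r and −0.48 to 0.31 for Igf2r. Without a block, the count of calls among the members tested was 0 of 4 in each title comparison and in C-26 against C-20, and 0 of 3 (Igfbp7 left out) in C-26 and in C-20 against NTC. At an unadjusted limma p below 0.05 there were 2 in clone 3 against clone 2 (both receptors) and 1 in each comparison with NTC (Igfbp4), and 0 elsewhere. Of all 10783 tested genes, 3731 were below it in clone 3 against clone 2, 1794 in C-26 against NTC and 834 in C-20 against NTC. In the other comparisons these were 3865 in clone 3 against control, 949 in clone 2 against control and 99 in C-26 against C-20.

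**Figure D4:**
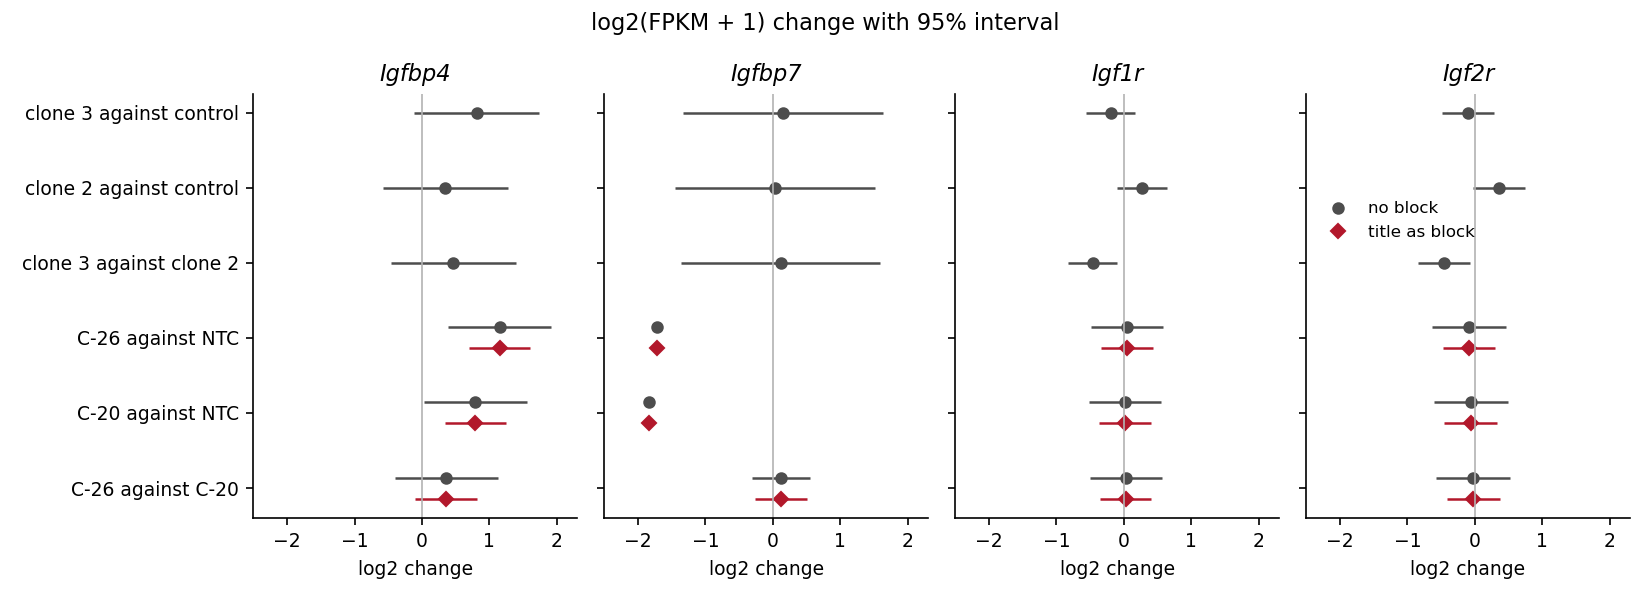
Differences of log2(FPKM + 1) (x axis) with 95% intervals for the 4 members tested in 6 comparisons, from fits of all 9 libraries without a block (grey circles) and, for codes, with title as block (red diamonds). Igfbp7 has no interval against NTC, where it was chosen; Igfbp4 in C-26 against NTC sits at 1.15, and the receptors sit between −0.08 and 0.05 in the code comparisons.

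The IGF ligands themselves were close to absent from the RNA. Igf1 was at most 0.0476 FPKM and Igf2 at most 0.0467 FPKM, Ins1 was listed at 0 in all 9 libraries, and Ins2 and Igfbp1 were listed at 0 in 8 of 9. Insr, the insulin receptor and closest relative of Igf1r, averaged 7.91 FPKM and was the 1 gene of 8 in this list to be tested. It fell to 5.84 ± 0.983 FPKM in clone 3, against 9.38 ± 1.64 FPKM in clone 2 (SD, n = 3 each), with no overlap, a log2 change of −0.60 (SE 0.19, limma adjusted p = 0.0482). With the length and GC correction it was −0.18 (limma adjusted p = 0.526).

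Of 11 IGFBP-related and CCN proteins, secreted factors that share the IGF-binding domain or lie close to it, 6 were tested and none was called in C-26 against NTC without the block. With title as block 1 rose and 3 fell, where 14.1% of all tested genes were called (6.75% higher, 7.36% lower), with a median log2 change of −0.79 over the 6, against −0.01 over all tested genes. Crim1, a membrane protein with an IGFBP motif, fell to 12.2 ± 2.91 FPKM in C-26, against 26.01 ± 7.44 FPKM in NTC (log2 change −1.01, limma adjusted p = 0.00815 with the block). Htra1, a serine protease that carries an IGFBP domain, fell to 130.4 ± 33.2 FPKM in C-26, against 222 ± 41.5 FPKM in NTC (log2 change −0.78, limma adjusted p = 0.0208 with the block). Wisp1, a CCN protein, had a change of −0.81 (limma adjusted p = 0.0418 with the block). The 1 gene counted as higher was Kazald1, of the IGFBP superfamily, with a change of 0.68. Kazald1 was at most 0.871 FPKM in NTC libraries and passed the filter only through C-26 and C-20 libraries. Its call against NTC is therefore no independent test of a rise. Without the clone 3 libraries 1 of the 6 was lower and 0 were higher, while 303 of all tested genes were called. By title, with no block or correction, the list had 0 calls in each of the 3 comparisons.

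Among 10 proteases of IGF-binding proteins and their inhibitors, Pappa, whose product cuts IGFBP4, was at most 0.0133 FPKM, and Pappa2 at most 0.0739 FPKM. Stc2, a stanniocalcin that inhibits PAPP-A, fell to 3.34 ± 0.567 FPKM in C-26, against 11.05 ± 2.57 FPKM in NTC (log2 change −1.46, limma adjusted p = 0.00783 with title as block). Adamts1 and Adam12, metalloproteases reported to cut binding proteins, had changes of −1.33 and −0.79 (limma adjusted p = 0.0379 and 0.0346 with the block). Plat, tissue plasminogen activator, rose to 6.46 ± 2.55 FPKM in C-26, against 1.84 ± 0.739 FPKM in NTC (log2 change 1.37, limma adjusted p = 0.00884 with the block). The 5 tested genes thus had 1 higher and 3 lower with the block, beside 14.1% called among all genes. Without the block 0 of them were called, beside 15 of all 10783 tested genes. With the block and without the clone 3 libraries 1 was higher and 0 were lower, beside 218 and 85 of all tested genes. By title Adam12 rose to 4.57 ± 2.09 FPKM in clone 3, against 1.57 ± 0.229 FPKM in control (log2 change 1.06, limma adjusted p = 0.0460, and 0.0669 with the length and GC correction).

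Downstream of the receptors, 26 of 29 signalling genes were tested. In clone 3 against control 3 rose and 2 fell, a share of the list close to the 20.6% called among all genes, with a median change of 0.07 beside 0.09 for all. Akt1, a kinase activated by PI3K, rose to 249.9 ± 34.3 FPKM in clone 3, against 142 ± 53.5 FPKM in control (log2 change 0.88, limma adjusted p = 0.0415, and 0.43 with adjusted p = 0.221 after the length and GC correction). Hras1, a RAS GTPase, rose by 0.78 (limma adjusted p = 0.0390) and Pik3ca, a catalytic subunit of PI3K, fell by 0.66 on the log2 scale (limma adjusted p = 0.0257); after the correction these were 0.38 and 0.25, the sign of Pik3ca turned and neither called (limma adjusted p = 0.258 and 0.288). In clone 3 against clone 2 there were 2 higher and 3 lower of the 26, close to the 18.8% of all tested genes called there (6.03% higher, 12.8% lower). By code, C-26 against NTC had 0 calls, and with title as block Socs1 (0.95) and Socs3 (0.93), feedback inhibitors of cytokine and insulin signalling, rose while Gsk3b (−0.72), a kinase inhibited by AKT, fell (limma adjusted p = 0.0354, 0.0217 and 0.0418). These 3 of 26 compare with 14.1% of all tested genes called in that fit. None of the 26 was called with the block once the clone 3 libraries were left out, where 303 of all 10783 tested genes were.

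The partners of Igf2r in lysosomal sorting were all expressed. Of 12 genes of mannose 6-phosphate sorting, 3 rose and 2 fell in clone 3 against control, where 7.44% of all tested genes rose and 13.2% fell. Vps35 and Vps26a, subunits of the retromer that returns the receptor from endosomes, fell to 35.7 ± 7.77 and 20.1 ± 3.23 FPKM in clone 3, against 71.4 ± 8.83 and 30.8 ± 2.87 FPKM in control (log2 changes −0.996 and −0.60, limma adjusted p = 0.00487 and 0.0280). Ap1b1 and Ap1m1, subunits of the AP-1 clathrin adaptor, rose by 0.62 and 0.60 (limma adjusted p = 0.0410 and 0.0499). After the length and GC correction 1 of the 12 was called, higher, beside 1055 of all 10492 genes in that fit, 447 of them higher. These 4 lost their calls, and the sign of Vps35 turned, to 0.29 (limma adjusted p = 0.207). In C-26 against NTC 0 of the 12 were called, with the block or without it, where 14.1% and 0.139% of all tested genes were.

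Of 20 lysosomal enzymes that mannose 6-phosphate receptors carry, 3 rose and 0 fell in clone 3 against control, where 7.44% of all tested genes rose and 13.2% fell. Their median change was 0.35 beside 0.09 for all tested genes, and after the length and GC correction it was 0.10 beside 0.02 for all. The corrected fit called 1 of the 20, beside 1055 of all 10492 genes. Ctsl, a cysteine protease, rose to 753 ± 159 FPKM in clone 3, against 365 ± 116 FPKM in control (log2 change 1.07, limma adjusted p = 0.0139, and 1.53 with adjusted p = 0.00566 after the length and GC correction). Gusb and Gaa, glycosidases, rose by 1.14 and 0.77 (limma adjusted p = 0.0203 and 0.0167), and after the correction stood at 0.82 and 0.35 (limma adjusted p = 0.0725 and 0.157). The 3 IGF2 mRNA-binding proteins had 2 members tested and 0 called by title without a block or by code, with Igf2bp2 at 59.1 to 86.1 FPKM and Igf2bp1 at 1.07 to 5.10 FPKM.

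**Figure D5:**
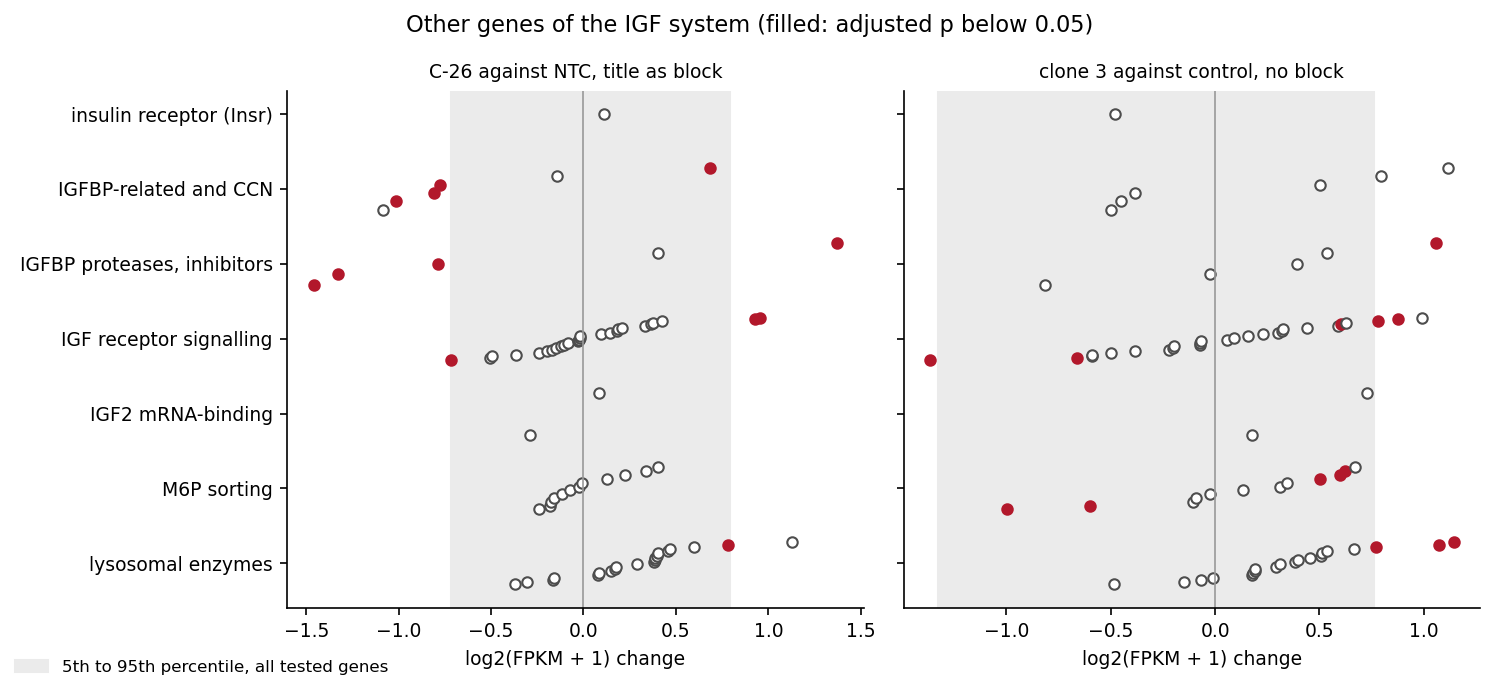
Differences of log2(FPKM + 1) (x axis) of the other tested genes of the IGF system, 1 point per gene and 1 row per list, for C-26 against NTC with title as block and clone 3 against control without a block; filled points had a limma adjusted p below 0.05 and the grey band spans the 5th to 95th percentile of all tested genes. In C-26 the IGFBP-related proteins and the proteases each have 1 called gene higher and 3 lower. The higher IGFBP-related gene, Kazald1, passed the filter only through C-26 and C-20 libraries.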

How the data were processed

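Per the labels' protocols, poly(A) RNA libraries were read in pairs on a HiSeq2500 instrument. The submitters' processing notes name TopHat2 2.0.13, Bowtie2 2.2.3, Cufflinks 2.2.1 and the build mm10. The deposited gene table holds FPKM of 24067 genes in 9 libraries and no counts, so depth and the precision it gives are unknown. A second table by the authors covers 13414 genes, all above 0 in every library, with log2 values that log2(FPKM + 1) followed by quantile scaling matched to 0.0031. Per the file headers, that table also gives for each pair of codes a signed fold score, a raw p-value and its adjusted p-value.

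Genes that reached 1 FPKM in 3 or more libraries (10783) were tested on log2(FPKM + 1) with limma 3.58.1 in R 4.3.3 (eBayes with trend). One fit of all 9 libraries was by title and another by code, each with Benjamini-Hochberg adjustment and a threshold of 0.05, and the fits were tested on simulated data with known changes. Title pairs the libraries in the code comparisons, because same-titled libraries come from the same line. Their deviations from the code means gave 9 correlations between 0.26 and 0.883, with 9 of 9 libraries closest to one of their own title. Where this block changed the call of a member, both values are given. For genes of the lists and markers the blocked adjusted p is given, with a statement of the calls without the block.

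The members and lists were chosen with earlier results of these data known. Named were all members, at most the 4 called genes of largest change per list and comparison (with or without the block), the 6 genes most alike to Igfbp7 and to Igfbp4, and the most abundant markers of other cell types. Not every gene this rule names is reported here. The genes beside Igfbp4 and Igfbp7 and the test of the difference between titles were chosen after seeing the data. GENCODE M21 gave 3′ UTRs, lengths and GC content, and RefSeq gave promoters, positions and the miRNA, on GRCm38. The length and GC correction took natural splines with 4 degrees of freedom over 10492 genes. Further alternatives were 0.1 as pseudocount, no filter on low values (20025 genes tested), 2 other scalings (quantile, median ratio), a fit of just the 2 groups in a comparison, and fits without 1 library or without clone 3. Protein features were planned and not run.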

Additional observations from a re-analysis of the deposited data

Results flagged for a closer look

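The C-26 and C-20 libraries of 1 title moved Igf1r one way from NTC and those of another title the other way. In clone 3 the log2 difference from NTC was −0.0187 in C-26 and −0.28 in C-20, and in clone 2 it was 0.29 in C-26 and 0.39 in C-20. In control it was −0.13 in C-26 and −0.0456 in C-20. Igf2r likewise lay at −0.30 in C-26 and −0.54 in C-20 of clone 3, whereas in control it lay at 0.18 in C-26 and 0.27 in C-20. A test of the difference itself, chosen after seeing the data, set C-26 and C-20 together against NTC in each title. It called neither gene: for Igf1r, clone 3 minus clone 2 was −0.49 (SE 0.28, limma adjusted p = 0.956) and clone 2 minus control was 0.43 (SE 0.28, limma adjusted p = 0.471). For Igf2r, clone 3 minus control was −0.64 (SE 0.30, limma adjusted p = 0.222). Over all 10783 tested genes these 3 tests called 1, 30 and 8. Each title gives 1 library per code.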

How the results depend on the processing

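Of 224 log2 changes of members under settings other than leaving out 1 library, 205 kept their direction and their side of the threshold and 16 turned sign. Title as a replicate block called 1 member in C-26 against NTC, Igfbp4 (log2 change 1.15), as did the block with the length and GC correction (1 member, 0.99). A replicate block by code called 1 member in clone 3 against control, Igfbp4 (0.81, limma adjusted p = 0.0149, from 0.00599 to 0.485 over its settings), and 3330 genes in place of 2220 there and 3176 in place of 2030 in clone 3 against clone 2. The codes pair the titles less clearly (correlations −0.235 to 0.562, 7 of 9 libraries closest to their own code). The blocks changed no other call of a member. In the lists, the block by code called Igf2bp1 in clone 3 against control (0.73, limma adjusted p = 0.00608) and against clone 2 (0.67, limma adjusted p = 0.00990), and of the IGFBP-related proteins Htra1 (0.79) and Kazald1 (−0.50) in clone 3 against control and Crim1 (−0.88) in clone 3 against clone 2. With 1 library left out, with or without the block, 0 to 1 members were called in clone 3 against control and in C-26 against NTC, and 0 to 2 in clone 3 against clone 2.

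Signs turned for small changes. The length and GC correction, with or without the block, put Igfbp7 at −0.0186 in clone 2 against control, −0.26 in clone 3 against control and −0.24 in clone 3 against clone 2, and Igf1r at −0.0382 in C-26 against C-20. Median ratio scaling put Igf1r at −0.00174 for C-26 and −0.00637 for C-20 against NTC. Without the clone 3 libraries, with or without the block, Igf2r was at 0.0216 for C-26 and 0.18 for C-20 against NTC, and Igf1r at −0.0906 in C-26 against C-20. Leaving out 1 library, Igfbp7 ran between −0.56 and 0.67 in clone 3 against control, −0.59 and 0.67 in clone 3 against clone 2, and −0.52 and 0.55 in clone 2 against control. Igfbp4 ran between −0.0540 and 0.67 in clone 2 against control, and Igf2r between −0.28 and 0.0816 in clone 3 against control. Against NTC, Igf1r ran between −0.10 and 0.14 for C-26 and −0.18 and 0.22 for C-20, and Igf2r between −0.23 and 0.0879 for C-26 and −0.26 and 0.16 for C-20. For C-26 against C-20, Igf1r ran between −0.17 and 0.23 and Igf2r between −0.24 and 0.17. The cause was not tested.

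Over all settings the genes called numbered 1011 to 3786 in clone 3 against control, 835 to 4664 in clone 3 against clone 2, 0 to 76 in clone 2 against control, 2 to 1960 in C-26 against NTC, 0 to 140 in C-20 against NTC and 0 to 9 in C-26 against C-20, where 2220, 2030, 0, 15, 2 and 2 are reported. Quantile scaling moved the median change of all genes to 0.12 in clone 3 against control and 0.10 in clone 3 against clone 2. FPKM carry no read depth, so no limit can be set near 0.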
